A study of Mus musculus with 4 samples.

Results

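The genes described here encode the PIWI proteins *Piwil1*, *Piwil2* and *Piwil4* and the Tudor domain proteins *Tdrd1*, *Tdrd5*, *Tdrd6*, *Tdrd7*, *Tdrd9*, *Tdrd12* and *Tdrkh*. They were chosen by gene symbol, as a family, and are 10 of the 23980 genes in the deposited table. PolyA(+) RNA was sequenced from spermatocytes at the leptotene/zygotene (L/Z) stages, early in meiotic prophase, sorted from F1 hybrids of the mouse strains C57BL6/J and MSM/Ms at 3 to 4 weeks after birth. The 4 libraries had the genotypes Dnmt3L_Het, Pld6 WT, Dnmt3L_KO and Pld6 KO. *Pld6* encodes a mitochondrial protein needed to make piRNAs, and *Dnmt3l* encodes a cofactor of de novo DNA methylation. The first pair served as controls and each mutant had 1 library. The Dnmt3L heterozygote carries a mutant allele, so the spread between the controls holds a difference of genotype and line as well as chance. The number of animals behind a library, and how the alleles were made, were not given in the labels.

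PIWI proteins are the Argonaute family members of the germ line. They carry piRNAs, small RNAs that guide them to retrotransposon transcripts and, before birth, direct DNA methylation to retrotransposons in male germ cells. Tudor domains bind methylated arginines in the N-terminal parts of PIWI proteins, and through this contact Tudor proteins gather PIWI proteins, helicases and nucleases in granules beside mitochondria and later in the chromatoid body.

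The coding starts of the 3 PIWI genes are shown because they encode the part of the protein to which Tudor domains bind. Each run is the first 150 coding bases (50 codons), 5′ to 3′, from the GENCODE M21 principal transcript on GRCm38, the assembly of mm10. Capitals mark an arginine codon followed directly by a glycine codon, the pair of residues in which such arginines usually lie.
Piwil1: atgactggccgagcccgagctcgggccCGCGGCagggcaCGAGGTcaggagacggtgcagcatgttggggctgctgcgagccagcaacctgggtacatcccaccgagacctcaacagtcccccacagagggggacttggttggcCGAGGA
Piwil2: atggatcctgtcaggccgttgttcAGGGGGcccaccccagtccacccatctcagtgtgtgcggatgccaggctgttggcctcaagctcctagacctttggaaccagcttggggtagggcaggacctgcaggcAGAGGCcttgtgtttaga
Piwil4: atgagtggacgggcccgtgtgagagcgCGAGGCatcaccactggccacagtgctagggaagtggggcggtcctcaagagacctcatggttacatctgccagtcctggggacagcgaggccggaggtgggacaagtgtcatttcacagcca
The start codon of *Piwil1* lies on chromosome 5 at 128739047 to 128739049, in exon 3 of that transcript. The start codon of *Piwil2* lies on chromosome 14 at 70426696 to 70426698, in exon 2, on the minus strand. The start codon of *Piwil4* lies on chromosome 9 at 14740542 to 14740544, in exon 1, on the minus strand. *Piwil1* had 9 such codon pairs among 862 codons, 5 of them in the first 150 codons. *Piwil2* had 8 among 971 codons, 6 of them in the first 150. *Piwil4* had 4 among 848 codons, 2 of them in the first 150.

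Levels are given in FPKM, fragments scaled to transcript length and to library depth, as deposited. Gene totals ranged from 30439943 fragments in the Pld6 KO to 63875934 in the Dnmt3L_Het library, and the 10 genes together took between 0.0688% (Dnmt3L KO) and 0.140% (Pld6 WT) of them. None of the 20 L/Z marker genes was at 0 fragments in any library. The libraries were not equally pure. The summed level of 14 Sertoli cell markers was 5635 (Dnmt3L_Het) and 251 FPKM (Pld6 WT) in the controls and 7476 (Dnmt3L KO) and 575 FPKM (Pld6 KO) in the mutants. The summed level of 8 Leydig cell markers was 340 FPKM in both Dnmt3L libraries, 26.7 FPKM in the Pld6 WT and 242 FPKM in the Pld6 KO library. Of 7 macrophage and 6 peritubular and vascular markers, none was at 0 fragments in any library, and their sums ranged from 19.6 to 117 FPKM and from 133 to 573 FPKM. Sertoli and Leydig cell markers were lowest in the Pld6 WT library. In bulk RNA of this kind, fewer cells of a type and less RNA per cell cannot be told apart.

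All 10 genes were detected in all 4 libraries, by at least 22 fragments each. In the controls the order of the mean levels was *Piwil2*, *Tdrkh*, *Tdrd7*, *Tdrd9*, *Tdrd12*, *Tdrd1*, *Tdrd5*, *Piwil1*, *Tdrd6* and *Piwil4*. The mean of *Piwil2* was 65.0 ± 28.1 FPKM (SD, n = 2) and that of *Piwil4* 3.47 ± 0.910 FPKM (SD, n = 2). At 3 places in this order alone did neighbours have control ranges that did not overlap, between *Tdrd7* and *Tdrd9*, between *Tdrd1* and *Tdrd5* and between *Tdrd6* and *Piwil4*. In both mutants *Piwil2* stayed first, but *Tdrd6* was last and *Piwil1* second to last, below *Piwil4*. An order by FPKM depends on the transcript lengths used. Judged by fragments per FPKM, the length used for *Tdrd12* was 0.379 of that for *Piwil1*, and that for *Tdrd1* was 1.25. *Tdrd12* thus stood above *Tdrd1*, though in the Dnmt3L_Het library it had 2526 fragments and *Tdrd1* had 7622.

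**Figure D1:**
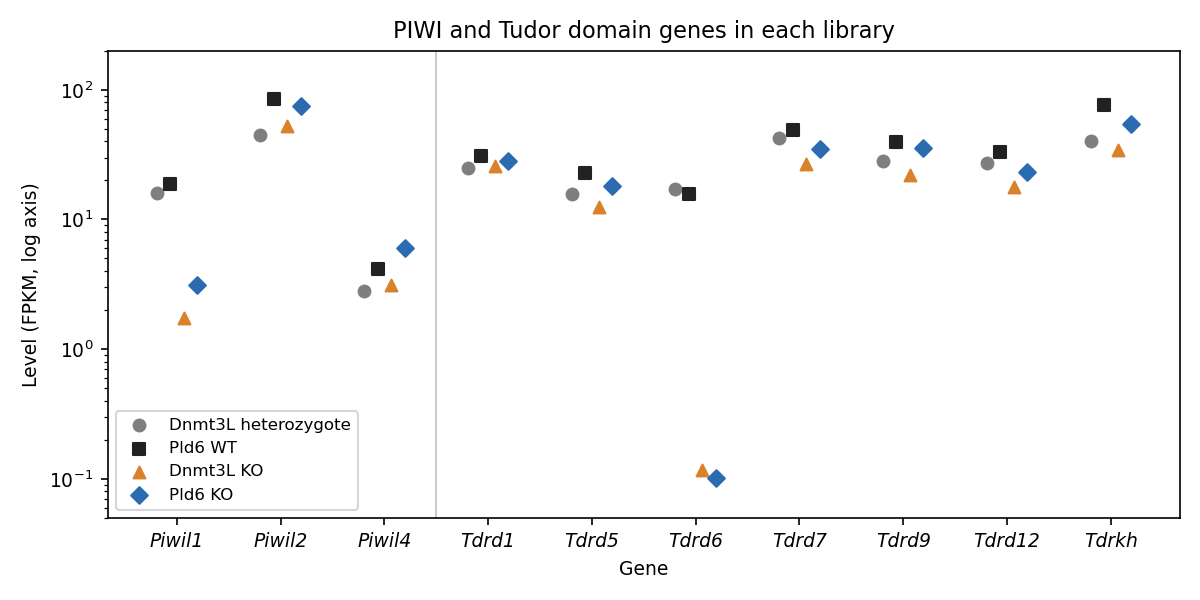
Level of each gene (FPKM, logarithmic axis) in the 4 libraries, 1 point per library, with the PIWI genes left of the vertical line and the Tudor genes right of it. *Piwil1* and *Tdrd6* lie far lower in both mutants than in both controls, while the points of the other 8 genes lie within a 2.22-fold range.

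*Piwil1* and *Tdrd6* were the 2 of 10 genes that lay more than 2-fold below both controls in the Pld6 KO, and the same 2 lay there in the Dnmt3L KO. A gene was counted so when its FPKM + 1 passed the fold, which is a description of single libraries and carries no p-value. None of the 10 lay more than 2-fold above both controls in either mutant. Over all 23980 genes this rule put 5.41% below and 1.04% above both controls in the Pld6 KO, and 5.78% below and 2.14% above in the Dnmt3L KO. Among the 14416 genes with a mean of at least 1 FPKM, the shares more than 2-fold below both controls were 8.57% and 9.16%. Set against Pld6 WT alone, the Pld6 KO again had 2 of 10 lower and 0 higher, beside 6.46% lower and 4.69% higher of all genes. The Dnmt3L KO had 2 of 10 lower and 0 higher against the Dnmt3L heterozygote, beside 8.22% lower and 3% higher of all genes. The controls were more than 2-fold apart for 0 of the 10 genes and for 14.8% of all genes, and the mutants for 0 of the 10 and for 13.7% of all genes.

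*Piwil1* encodes MIWI, the PIWI protein of pachytene spermatocytes and round spermatids (chromosome 5, 128736071 to 128755474, plus strand). It was at 16.0 (Dnmt3L_Het) and 18.7 FPKM (Pld6 WT) in the controls and 1.73 (Dnmt3L KO) and 3.13 FPKM (Pld6 KO) in the mutants. Both mutants were low, the Dnmt3L KO the lower of them, and the groups did not overlap. These levels rest on 3886, 2846, 307 and 371 fragments, and the 95% exact Poisson intervals of the mutants, which cover counting error only, were 1.54 to 1.94 FPKM in the Dnmt3L KO and 2.82 to 3.46 FPKM in the Pld6 KO. The level was 9.24-fold below the lower control in Dnmt3L KO and 5.12-fold below it in Pld6 KO cells. On the log2(FPKM + 1) scale, which understates changes of low values, the differences from the control mean were -2.75 and -2.15. Of the 14416 genes, 4.50% (Dnmt3L KO) and 7.03% (Pld6 KO) had a lower value than *Piwil1*.

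*Piwil2* encodes MILI, which is present in male germ cells from before birth to the round spermatid stage (chromosome 14, 70372477 to 70436898, minus strand). It was at 45.1 (Dnmt3L_Het) and 84.9 FPKM (Pld6 WT) in the controls and 52.2 (Dnmt3L KO) and 74.5 FPKM (Pld6 KO) in the mutants. Both mutants lay between the controls, which were themselves 1.88-fold apart. The log2 difference from the own-line control was -0.19 in the Pld6 KO and 0.20 in the Dnmt3L KO.

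*Piwil4* encodes MIWI2, the nuclear PIWI protein known from fetal male germ cells (chromosome 9, 14701776 to 14740672, minus strand). It was at 2.83 (Dnmt3L_Het) and 4.11 FPKM (Pld6 WT) in the controls and 3.12 (Dnmt3L KO) and 6.02 FPKM (Pld6 KO) in the mutants. The Pld6 KO was the highest and lay above both controls by less than 2-fold, and the Dnmt3L KO lay between them. The log2 difference from the control mean was 0.65 in the Pld6 KO and -0.12 in the Dnmt3L KO.

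With *Piwil1* low and *Piwil2* within the control range, the makeup of the PIWI transcripts differed between mutants and controls. *Piwil1* made up 25.0% (Dnmt3L_Het) and 17.3% (Pld6 WT) of the summed PIWI FPKM in the controls, against 3.04% (Dnmt3L KO) and 3.74% (Pld6 KO) in the mutants. *Piwil2* made up 70.6% and 78.8% in these controls, against 91.5% and 89.1% in the mutants. The ratio of *Piwil1* to *Piwil2* within a library, which no scaling between libraries can move, was 0.354, 0.220, 0.0332 and 0.0420 in the same order. Both ratios of the mutants lay below those of both controls.

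**Figure D2:**
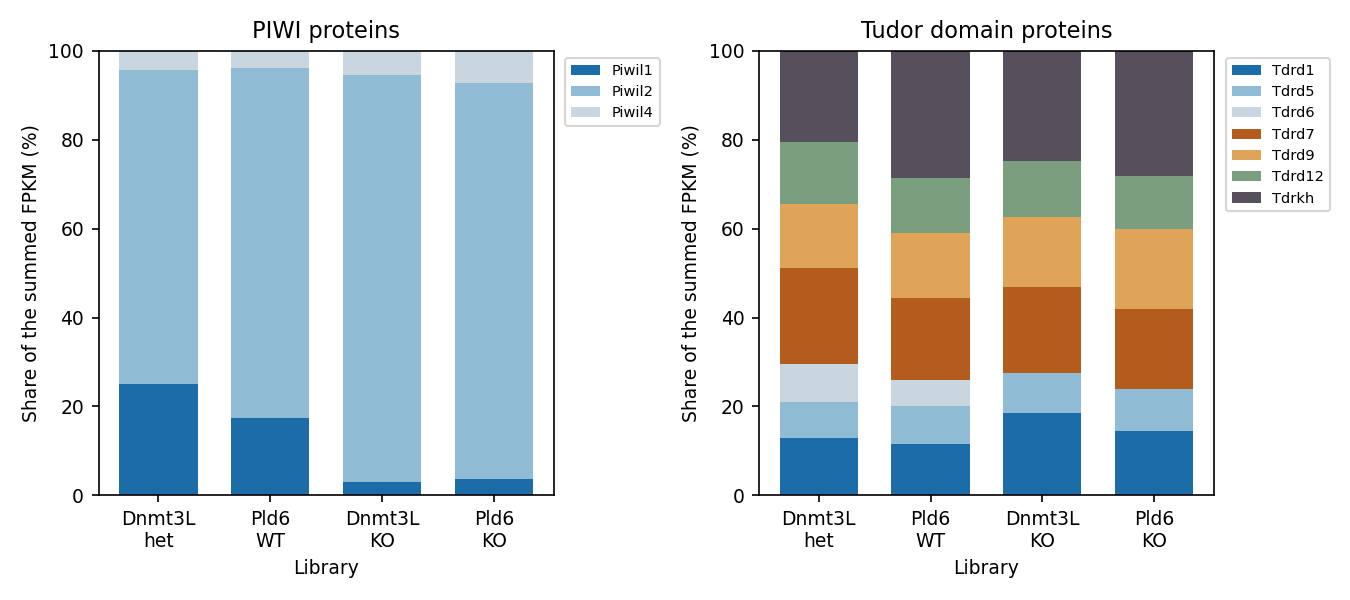
Share of each gene in the summed FPKM of the 3 PIWI genes (left) and of the 7 Tudor genes (right), in percent, with 1 stacked bar per library. *Piwil1* takes 25.0% and 17.3% of the PIWI bar in the controls and 3.04% and 3.74% in the mutants, and the *Tdrd6* segment of 8.70% and 5.83% in the controls is too thin to see in the mutants.

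*Tdrd6* encodes a large protein with several Tudor domains that is a scaffold of the chromatoid body (chromosome 17, 43615334 to 43631846, minus strand). It was at 17.0 (Dnmt3L_Het) and 15.6 FPKM (Pld6 WT) in the controls and 0.117 (Dnmt3L KO) and 0.101 FPKM (Pld6 KO) in the mutants. The controls were close to each other, both mutants were near 0, and the groups did not overlap. These levels rest on 7579, 4350, 38 and 22 fragments, above the 3 fragments that a count of 0 allows. The 95% exact Poisson intervals of the mutants, again for counting error only, were 0.0829 to 0.161 FPKM in the Dnmt3L KO and 0.0636 to 0.154 FPKM in the Pld6 KO. The level was 133-fold below the lower control in Dnmt3L KO and 154-fold below it in Pld6 KO cells, or 0.719% and 0.622% of the control mean. The log2(FPKM + 1) differences were -3.95 and -3.97, and of the 14416 genes 2.06% and 2.28% had a lower value. *Tdrd6* fragments remained in both mutants at similar levels, with intervals that overlapped.

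*Tdrd7* encodes another chromatoid body component, which also acts in the eye lens (chromosome 4, 45965027 to 46034766, plus strand). It was at 42.3 (Dnmt3L_Het) and 49.1 FPKM (Pld6 WT) in the controls and 26.8 (Dnmt3L KO) and 34.8 FPKM (Pld6 KO) in the mutants. *Tdrd12*, whose product joins Tudor and helicase domains and acts in piRNA biogenesis (chromosome 7, 35466941 to 35537784, minus strand), was at 27.4, 33.1, 17.8 and 23.2 FPKM in the same order. For both genes the mutants lay below both controls, but by less than 2-fold. In the Dnmt3L KO they were 1.58-fold and 1.54-fold below the lower control and in the Pld6 KO 1.21-fold and 1.18-fold. Of the 45 pairs among the 10 genes, *Tdrd7* and *Tdrd12* had the most similar profiles, with a largest difference over the 4 libraries of 0.03 in log2(FPKM + 1) after each gene's mean was subtracted. The least similar pair was *Piwil4* and *Tdrd6*, at 2.52. *Piwil1* and *Tdrd6*, the genes low in both mutants, differed by 1.07.

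*Tdrd1* encodes a partner of MILI in the granules between mitochondria (chromosome 19, 56826171 to 56870012, plus strand). It was at 25.1 (Dnmt3L_Het) and 31.0 FPKM (Pld6 WT) in the controls and 25.8 (Dnmt3L KO) and 28.3 FPKM (Pld6 KO) in the mutants. Both mutants lay between the controls, and the range over all 4 libraries was 1.24-fold. *Tdrd9* encodes a helicase that works with MIWI2 in retrotransposon silencing (chromosome 12, 111971488 to 112068854, plus strand). It was at 28.0, 39.5, 22.0 and 35.3 FPKM in the same order. Its Pld6 KO value lay between the controls and its Dnmt3L KO value below both.

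*Tdrd5* encodes a protein of the same granules that is needed for retrotransposon silencing and for spermatid development (chromosome 1, 156255296 to 156304304, minus strand). It was at 15.8 (Dnmt3L_Het) and 22.8 FPKM (Pld6 WT) in the controls and 12.4 (Dnmt3L KO) and 18.2 FPKM (Pld6 KO) in the mutants. *Tdrkh* encodes a mitochondrial Tudor protein that takes part in trimming piRNA precursors (chromosome 3, 94413243 to 94434854, plus strand). It was at 40.2, 76.3, 34.4 and 54.7 FPKM in the same order. For both genes the Pld6 KO lay between the controls and the Dnmt3L KO below both. *Tdrkh* overlaps *Oaz3* on the opposite strand, a gene known from spermatids that was at 154 (Dnmt3L_Het) and 26.7 FPKM (Pld6 WT) in the controls and 3.07 (Dnmt3L KO) and 3.75 FPKM (Pld6 KO) in the mutants. The kit keeps the strand but the strand setting of the counting was not given in the sources used here, so the value of *Tdrkh* is uncertain. *Tdrkh* was highest in the Pld6 WT and *Oaz3* in the Dnmt3L_Het library, and the part of *Oaz3* reads in the *Tdrkh* value was not tested.

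Among the 7 Tudor genes, *Tdrd6* made up 8.70% (Dnmt3L_Het) and 5.83% (Pld6 WT) of the summed FPKM in the controls, against 0.0841% (Dnmt3L KO) and 0.0521% (Pld6 KO) in the mutants. Its ratio to *Tdrd7*, its fellow chromatoid body component, was 0.403 and 0.317 in the controls and 0.00437 and 0.00291 in the mutants. The ratio of *Piwil1* to *Tdrd6* was 0.939 and 1.20 in the controls, 14.8 in Dnmt3L KO and 30.8 in Pld6 KO cells. The pair thus had near-equal levels in both controls and unequal levels in both mutants, *Tdrd6* being much the lower.

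The other 8 genes lay nearer to the controls. They stood at 76.2% (*Tdrd7*) to 174% (*Piwil4*) of the control mean in the Pld6 KO and at 58.6% (*Tdrd7*) to 91.9% (*Tdrd1*) in the Dnmt3L KO. Over all 10 genes the median log2 difference from the control mean was -0.09 in the Pld6 KO, beside -0.05 for the 14416 genes, and -0.67 in the Dnmt3L KO, beside -0.02 for the 14416 genes. Against the own-line control the medians were -0.39 and -0.33, beside 0.01 and 0.06. For these 10 genes the Dnmt3L libraries also stood lower as a line. The Pld6 WT was above the Dnmt3L_Het for 9 of the 10 (median log2 difference 0.36). The Pld6 KO was above the Dnmt3L KO for 9 of the 10 (median 0.51), the exception in both being *Tdrd6*. Over the 14416 genes these medians were -0.06 and 0, with 53.2% and 48.8% of the genes lower in the Pld6 library. The Dnmt3L libraries were those with the high Sertoli cell markers, and the part of these cells in the lower levels was not tested. FPKM was also set relative to the median level of the 20 L/Z markers, which moved the median of the 14416 genes in the Dnmt3L KO to 0.97 and left that in the Pld6 KO at 0.04. On this scale the 8 genes other than *Piwil1* and *Tdrd6* had log2 differences between 0.31 (*Tdrd7*) and 0.96 (*Tdrd1*) in the Dnmt3L KO, above 0 but below the median of the 14416 genes, as they were before rescaling. *Piwil1* (-1.92) and *Tdrd6* (-3.65) stayed below 0 there. In the Pld6 KO *Tdrd5* (0.11) and *Tdrkh* (0.19) turned from below to above that median, whereas *Piwil1*, *Tdrd6*, *Tdrd7* and *Tdrd12* stayed below and *Piwil4* above the controls under all 6 settings of scale, pseudocount and control.

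**Figure D3:**
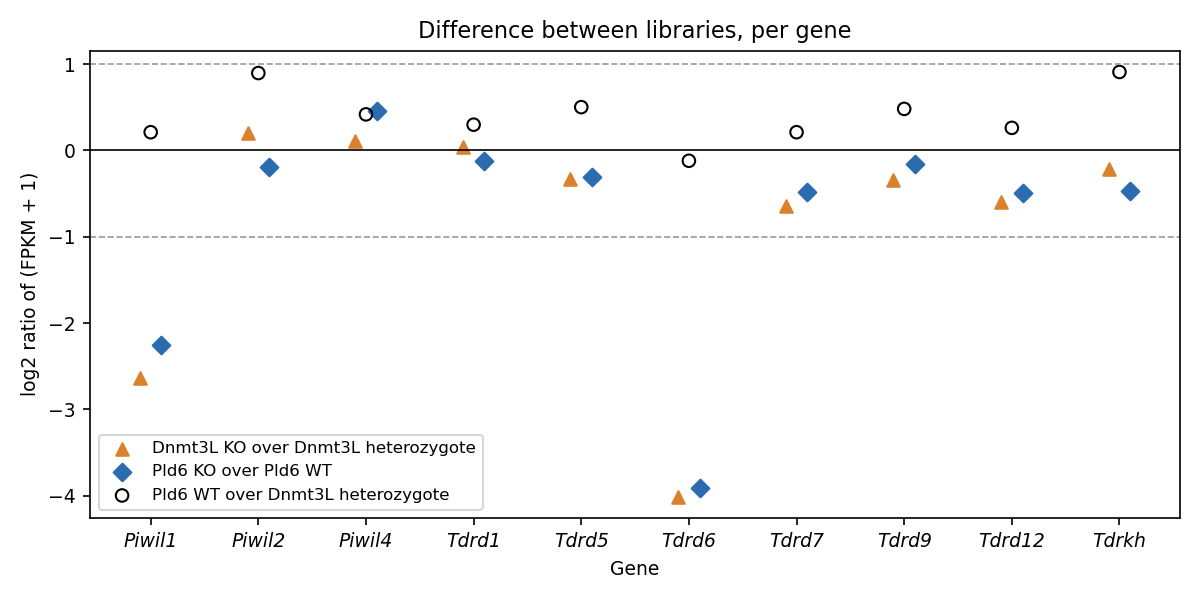
log2 ratio of FPKM + 1 for each gene between mutant and control of the same line (filled) and between the controls (open), with dashed lines at 2-fold. *Tdrd6* lies at -4.01 and -3.91 and *Piwil1* at -2.64 and -2.25, whereas all open circles and the other filled points lie inside the dashed lines.

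The fragments of all genes were tested with edgeR (quasi-likelihood), with Benjamini-Hochberg adjustment. It called 0 of the 10 genes in the Pld6 KO, in the Dnmt3L KO and in both mutants together against the controls, and 0% of the genes tested in each (18657, 18657 and 17686). Nothing at all being called, these zeros do not set the 10 genes apart from the rest. At an unadjusted p under 0.05 the same 2 of 10 genes, *Piwil1* and *Tdrd6*, were lower in each comparison and 0 were higher, where 7.41%, 7.72% and 8.75% of all genes were lower. *Tdrd6* had a log2 fold change of -7.38 in the Pld6 KO (adjusted p = 0.102), -7.14 in the Dnmt3L KO (adjusted p = 0.0967) and -7.25 in both (adjusted p = 0.0877) by edgeR. *Piwil1* had -2.52 (adjusted p = 0.319), -3.34 (adjusted p = 0.184) and -2.87 (adjusted p = 0.106) by edgeR. The edgeR values carry no pseudocount of 1 FPKM and so lie farther from 0 than those above. DESeq2 called the same 2 genes lower in all 3 comparisons, with adjusted p = 3.24e-15, 1.43e-15 and 9.36e-37 for *Tdrd6* and 0.0353, 0.00101 and 4.51e-05 for *Piwil1*, where it called 5.11%, 4.82% and 6.45% of all genes with an adjusted p lower. With line as a further term in edgeR, both were called in the comparison of both mutants, with adjusted p = 0.00025 for *Tdrd6* and 0.00209 for *Piwil1*, where 5.98% of all genes were called lower. The single mutants rest on 1 library each, their spread comes from the controls alone, and the comparison of both mutants mixes genotypes.

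Markers of later stages moved in the same direction as *Piwil1* and *Tdrd6*. Of 13 pachytene spermatocyte markers, 11 lay more than 2-fold below both controls in the Pld6 KO and 12 in the Dnmt3L KO. Their summed level was 1529 and 934 FPKM in the controls and 107 (Dnmt3L KO) and 173 FPKM (Pld6 KO) in the mutants. Of 15 spermatid markers, 14 (Pld6 KO) and 13 (Dnmt3L KO) lay below both controls by the same rule. Their sum was 7159 (Dnmt3L_Het) and 204 FPKM (Pld6 WT) in the controls and 31.0 (Dnmt3L KO) and 14.5 FPKM (Pld6 KO) in the mutants. *Acrv1*, *Acr* and *Catsper1* were at 0 fragments in the Pld6 KO and *Catsper1* in the Dnmt3L KO, and of the pachytene markers *Pgk2* and *Spag6* had 1 fragment each in the Pld6 KO, within the 3 that a count of 0 allows. The share of these stages in the levels of *Piwil1* and *Tdrd6* was not tested.

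The markers of L/Z and earlier stages moved less. Of 20 L/Z markers, 1 in the Pld6 KO and 3 in the Dnmt3L KO lay more than 2-fold below both controls. Their median log2 difference from the control mean was -0.38 in the Pld6 KO and -1.12 in the Dnmt3L KO. Their sums were 2340 and 3904 FPKM in the controls, 1373 FPKM in the Dnmt3L KO and 2220 FPKM in the Pld6 KO. Of 15 spermatogonial markers, 3 lay more than 2-fold above and 0 more than 2-fold below both controls in the Pld6 KO. By the same rule 1 lay above and 1 below in the Dnmt3L KO. Their sums were 825 and 1093 FPKM in the controls and 789 (Dnmt3L KO) and 1088 FPKM (Pld6 KO) in the mutants.

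**Figure D4:**
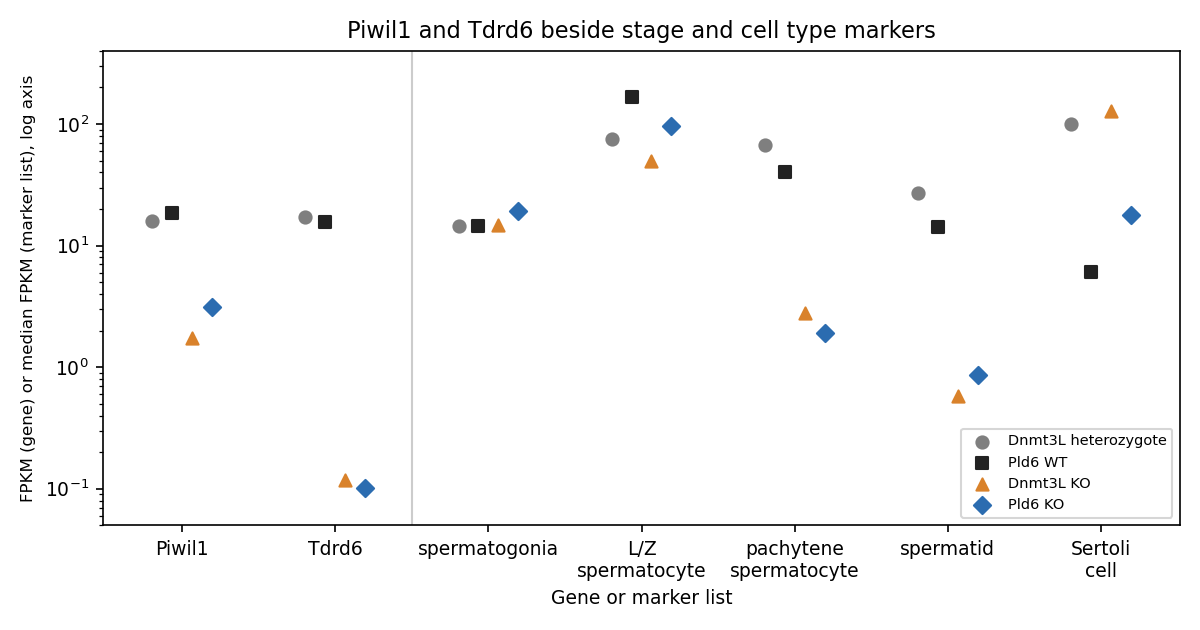
Levels of *Piwil1* and *Tdrd6* (FPKM) left of the line and the median FPKM of 5 marker lists right of it, on a logarithmic axis, with 1 point per library. The pachytene and spermatid medians are low in both mutants, as *Piwil1* and *Tdrd6* are, whereas the spermatogonial medians lie close together and the Sertoli cell medians split by line.

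The genes that work with PIWI and Tudor proteins were mostly within 2-fold of a control. Of 17 piRNA pathway partners, 3 lay more than 2-fold below both controls, on FPKM + 1, in the Pld6 KO (*Pld6*, *Mael* and *Gtsf1*). In the Dnmt3L KO 2 did (*Mael* and *Gtsf1*), and 0 lay more than 2-fold above both controls in either mutant. The targeted gene *Pld6* was at 17.2 (Dnmt3L_Het) and 19.5 FPKM (Pld6 WT) in the controls and 8.55 (Dnmt3L KO) and 0.334 FPKM (Pld6 KO) in the mutants. *Mael*, which encodes a granule protein of piRNA silencing, was at 399, 369, 133 and 182 FPKM in the same order. *Gtsf1*, which encodes a cofactor of PIWI proteins in target cleavage, was at 180, 167, 50.4 and 55.3 FPKM. Both genes were high in both controls and low in both mutants, without overlap. The median log2 difference of the 17 genes was 0.00084 in the Pld6 KO and -0.59 in the Dnmt3L KO.

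Of 8 other Tudor domain genes, 0 lay more than 2-fold below and 0 more than 2-fold above both controls in either mutant. Their median log2 differences were -0.03 in the Pld6 KO and -0.18 in the Dnmt3L KO. Among 4 Argonaute genes and *Dicer1*, which act in the microRNA pathway, only *Ago2* passed. It was at 1.95 (Dnmt3L_Het) and 2.61 FPKM (Pld6 WT) in the controls and 6.31 (Dnmt3L KO) and 2.16 FPKM (Pld6 KO) in the mutants. The Dnmt3L KO was the high library, and it also had the highest sum of Sertoli cell markers (7476 FPKM). The Dnmt3L_Het library had the next highest sum (5635 FPKM) but the lowest *Ago2* level. The part of other cell types in the *Ago2* value of the Dnmt3L KO was not tested. edgeR called none of these genes.

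Promoter sequences are shown for motifs that *Piwil1*, low in both mutants, shared with members that were not. RefSeq promoters on GRCm38.p6, from 250 bases before to 50 after a start, were found for 8 of the 10 genes (14 starts), not for *Piwil2* and *Tdrd6*. The E-box CACGTG, which reads the same on both strands, was present at 4 of the 14 starts, those of *Piwil1*, *Tdrd1* and *Tdrd9*, beside 7.15% of 32851 promoters. Windows of 1 gene can overlap, as the *Tdrd1* windows from 56825959 and from 56826025 did. Each of these held 1 copy, possibly the same one, and the *Tdrd1* window from 56830462 held 0. *Piwil1* and *Tdrd9* each had it at 2 places, in capitals here, with chr5:128736041-128736100 and chr12:111971390-111971479 as the windows, both on the plus strand.
Piwil1: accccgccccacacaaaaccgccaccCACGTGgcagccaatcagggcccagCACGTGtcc
Tdrd9: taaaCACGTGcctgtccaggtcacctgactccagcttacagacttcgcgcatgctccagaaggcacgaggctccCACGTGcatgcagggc
In *Piwil1* the copies began at 128736067 and 128736092, which is 179 and 154 bases before the start in the promoter table (128736246). The gene's outermost RefSeq boundary, given above, lies farther upstream, within the first of these copies, so the second copy lies inside the annotated gene. In *Tdrd9* they began at 111971394 and 111971464, which is 165 and 95 bases before its start in that table (111971559), and both lay before the gene's outermost boundary. *Piwil1* was low in both mutants, and *Tdrd9* and *Tdrd1* were not called in either. Whether the motif bears on these levels was not tested, and *Tdrd6* had no promoter sequence here. The motif AACNG, the core that MYB proteins bind, searched on both strands, was at 14 of 14 starts, beside 80.3% of all promoters. CCAAT was at 3 of 14, beside 37.4%, and GGCGGGA at 0 of 14, beside 11.3%, on both strands. Such matches describe the letters in the window and are not binding sites.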

How the data were processed

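The report covers 4 mouse libraries of stranded polyA(+) RNA, sequenced as single reads of 50 bp. Per the labels, the authors used TopHat and Cuffdiff with the build mm10, in versions not given in the sources used here. The deposited table gives an estimated count of raw fragments per gene and library, of which 97.3% to 97.4% were whole numbers (within 1e-06), and all were rounded for the count tests. The same deposited table gives FPKM, scaled by the authors' tool to transcript length and depth, for which no member was marked as failed. How far MSM/Ms alleles, which differ from the mm10 sequence, affected mapping was not tested. Total fragments ranged from 30439943 to 63875934, and intervals cover counting error only.

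Controls were Dnmt3L_Het (control replicate 1) and Pld6 WT (control replicate 2). The numbers only name libraries. Mutant and control of a line differ in genotype and so came from different animals, but the number of animals per library was not given. The p-values rest on the spread between libraries of the same fitted group. For a single mutant this is the spread between the 2 controls, which differ in line and genotype. For both mutants together it also holds the difference between the mutant genotypes. Changes were log2 of FPKM with a pseudocount of 1, against the control mean and the own-line control, and a 2-fold rule set against both controls. edgeR 4.0.16 (quasi-likelihood, TMM, filterByExpr, Benjamini-Hochberg over all genes at 0.05) was fitted with 3 groups (1 residual degree of freedom) and with mutants against controls (2 residual degrees of freedom), in R 4.3.3, and DESeq2 1.42.0 as an alternative. The scripts were tested on simulated data. The family members and gene lists were chosen with earlier results of these data known. All 10 members are named. Of each other list, at most 3 genes a direction that lay more than 2-fold beyond both controls in either mutant are named. Positions are RefSeq genes on GRCm38.p6. Protein sequences were not used here.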

Additional observations from a re-analysis of the deposited data

Results flagged for a closer look

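*Piwil2* differed in opposite directions from the control of its own line, by a log2 value of -0.19 in the Pld6 KO and 0.20 in the Dnmt3L KO. *Tdrd1* did so as well, at -0.13 and 0.04. In both genes the Pld6 WT was above the Dnmt3L_Het and both mutants lay between these controls, which by itself gives opposite signs. With 1 library on each side the difference in sign was not tested.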

How the results depend on the processing

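*Piwil1* and *Tdrd6* lay below the controls used, in both mutants, under all alternatives to the fold rule that were run. The alternatives were another pseudocount, 1.5-fold and 3-fold, TMM and L/Z marker scaling, and either control left out. Under them 3.54% to 13.4% of all genes were lower in the Pld6 KO and 2.82% to 9.84% in the Dnmt3L KO. At 1.5-fold, 4 members were lower in the Dnmt3L KO, *Tdrd7* and *Tdrd12* joining, where 9.16% of all genes were lower. At 2-fold, the count in the Dnmt3L KO was 2 without control replicate 2 (8.22% of all genes) and 3 without control replicate 1, with *Tdrkh* (8.75% of all genes). The median log2 difference was 0.14 (Pld6 KO) and 0.48 (Dnmt3L KO) relative to the L/Z markers, where the medians of the 14416 genes were 0.04 and 0.97. With 1 control left out it ranged from -0.39 to 0.18 in the Pld6 KO and from -0.84 to -0.33 in the Dnmt3L KO, so its sign in the Pld6 KO depended on the control (0.18 without control replicate 2, the Pld6 WT). Of 100 values of single members under an alternative, 84 moved by less than the SD of the 2 controls, 16 by more, and 0 of those called turned. The 16 arose under the other pseudocount and the L/Z marker scaling. Leaving out 1 control was bound to move a value by less, because that SD comes from the same 2 controls. Those values are among the 84 and say nothing about stability.

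edgeR called 0 members in each comparison. Without a filter on low counts it called 1 lower in each, *Tdrd6*, and DESeq2 called 2 lower in each. Over all genes edgeR without a filter called 8 higher and 429 lower (Pld6 KO), 6 and 423 (Dnmt3L KO) and 2 and 375 (both), and DESeq2 15 and 949, 17 and 915, and 37 and 1224. With line as a block, 2 members were called in the comparison of both mutants, with 131 higher and 1058 lower genes. With any 1 of the 4 libraries left out, the count in that comparison ranged from 0 to 0. Without a control, the comparison of a single mutant has 0 residual degrees of freedom and gives no test. The replicate numbers only name the libraries and pair none, so the line was the only block that could be fitted. The cause of these differences was not tested.

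A count of 0 allows up to 3 fragments, and the lowest count of a member was 22.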
